A study of Mus musculus with 16 samples.

Results

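Glucose uptake, glycolysis, lactate export and the pentose phosphate pathway were followed through 32 genes in mouse bone marrow-derived dendritic cells. The genes are transporters and enzymes of each step, listed by function with earlier results of these data known, and 27 of the 32 had a probe set that names that gene alone. Aldoa, Eno1, G6pdx, Gapdh and Gpi1 are not analysed here. All 27 passed the filter on low signal and stand among 10236 genes tested. RNA was measured on 16 microarrays, 4 in each of 4 groups. The first group grew in medium raised to 450 mOsm/L with NaCl and then received LPS (lipopolysaccharide of bacteria, the ligand of Tlr4) at 10 ng/mL. The second received the same LPS at 290 mOsm/L, the osmolarity of normal medium. The other groups grew at 450 mOsm/L and at 290 mOsm/L and received no LPS. All cells came from marrow of C57BL/6 mice cultured with GM-CSF at 10 ng/mL; salt was added from day 3, and cells were collected on day 7 and plated for 6 h more. The labels give the same 4 mouse numbers in every group, and thus each replicate is 1 animal; the sources used here give neither age nor sex. Below, 450 mOsm with LPS, 290 mOsm with LPS, 450 mOsm and 290 mOsm name the groups.

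Glycolysis splits glucose to pyruvate in the cytosol and yields ATP without oxygen. Glucose enters through GLUT transporters and is trapped by hexokinases; phosphofructokinase sets the pace, and its activator fructose 2,6-bisphosphate is made by the Pfkfb enzymes. Pyruvate is either reduced to lactate by lactate dehydrogenase and exported by monocarboxylate transporters, or enters mitochondria through pyruvate dehydrogenase, which Pdk kinases switch off. The pentose phosphate pathway branches off glucose 6-phosphate: its oxidative arm makes NADPH and its non-oxidative arm exchanges ribose and glycolytic sugars. Dendritic cells and macrophages sensing LPS are known to raise glycolysis, and the transcription factor HIF is a known activator of many of these genes.

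The median log2 value of an array was 6.78 to 6.93, and no array's median correlation with the others of its group, taken across genes, fell below the 0.990 of 450 mOsm replicate 4. Of the dendritic cell markers, some were high in every group: group means ran from 13.53 to 13.66 for Cd74, which chaperones MHC class II, and from 11.41 to 12.13 for the integrin gene Itgax, while Flt3 and Zbtb46 were dim (6.10 to 7.30 and 6.80 to 7.48). Markers of some other cells moved with salt. The counts below stand beside 16.8% higher and 21.8% lower among all genes tested for salt with LPS. Without LPS these shares were 20.6% and 23.7%. Of 16 neutrophil genes, 0 were higher and 14 lower at 450 than at 290 mOsm with LPS, and 0 were higher and 15 lower without LPS. Their mean level per array was 7.42 to 7.65 at 450 mOsm with LPS against 9.56 to 9.96 at 290 mOsm with LPS, and 6.78 to 6.94 at 450 mOsm against 9.46 to 9.94 at 290 mOsm. Of 12 macrophage genes, 8 and 7 were lower at high salt with and without LPS, and 1 was higher in each. Macrophage genes were bright in every group. Their mean level per array was 10.68 to 11.44, against 9.34 to 10.14 for the 13 dendritic cell genes with a probe set. Group means of the macrophage gene Adgre1 ran from 11.55 to 12.58. Of the 6 mast cell and basophil genes tested, 1 was higher and 3 lower with LPS, and 6 were lower without LPS. Only these 6 of the 11 in that list passed the filter on low signal. Group means exceeded the filter level for 6 and 5 genes at 290 mOsm with and without LPS. At 450 mOsm they did for 4 and 1, so these falls are not independent of the filter. The mean of all 11 per array was 6.26 to 6.35 at 450 mOsm with LPS against 6.90 to 7.42 at 290 mOsm with LPS. Without LPS it was 5.75 to 5.89 against 6.37 to 6.88. Of 5 monocyte genes, 1 was higher and 3 lower with LPS, and 1 was higher and 2 lower without LPS; of 11 dendritic cell genes, 3 were higher and 3 lower with LPS, and 1 was higher and 2 lower without LPS. T cell, B cell and erythroid lists had means of 5.70 to 6.45 on every array. Of the 2 T cell genes tested, 0 were higher and 1 lower with salt, both with and without LPS. The 1 B cell gene tested was not called for salt, and 0 erythroid genes were tested. In bulk RNA, fewer cells of a type and less RNA per cell cannot be told apart, and the part of these marker shifts in the results below was not tested.

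More genes were called higher with salt in LPS-treated cells (14) than in resting cells (8). A gene was called at a limma adjusted p under 0.05. Comparing 450 with 290 mOsm under LPS, 14 of the 27 genes rose, where 16.8% of all genes tested did, and 5 fell, where 21.8% of all genes did; the median log2 change was 0.39 over the 27 and 0.00 over all genes. Comparing 450 with 290 mOsm without LPS, 8 rose, where 20.6% of all genes did, and 9 fell, where 23.7% did, with medians of 0.03 and 0.00. The difference between the 2 salt effects, tested as an interaction, was called above 0 for 12 of the 27, where 10.7% of all genes were, and below 0 for 2, where 10.4% were, with medians of 0.31 and 0.00. LPS at 450 mOsm raised 15 of the 27, where 26.4% of all genes rose, and lowered 10, where 45.3% fell, with medians of 0.55 and -0.09. LPS at 290 mOsm raised 8, where 26.4% of all genes rose, and lowered 15, where 47.1% fell, with medians of -0.19 and -0.11. Cyclic loess scaling moved the median of all genes for LPS from -0.09 to 0.03 at 450 mOsm and from -0.11 to 0.02 at 290 mOsm, and then 16 rose and 8 fell at 450 mOsm while 10 rose and 11 fell at 290 mOsm. Small LPS effects are therefore read against that shift.

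The genes were grouped by their calls for salt with and without LPS. Slc2a1, Pfkfb3 and Pdk1 were called higher at 450 than at 290 mOsm with LPS and lower without it. Hk2, Tpi1, Pgk1, Pgam1 and Slc16a1 rose with salt under LPS and were not called without it, while Hk1, Pfkl, Aldoc, Pkm, Ldha and Slc16a3 rose in both. Slc2a3, Hk3, Rpia, Tkt and Taldo1 fell in both. Slc2a6 and Pfkp rose, and Ldhb fell, without LPS and were not called with it, and Pfkm, Pfkfb4, Eno2, Pgls and Pgd were called in neither. A call in 1 state and not in the other does not show that the salt effects differed. For Pfkp, Pgam1 and Ldhb the interaction was not called (limma adjusted p = 0.0664, 0.0818 and 0.0877). Cells at 450 mOsm with LPS had the highest group mean for 15 of the 27 genes, where they did for 21.7% of all genes tested, and in 10 of the 15 each of their arrays stood above all arrays of the next group, where this held for 29.6% of all genes highest in that group.

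**Figure D1:**
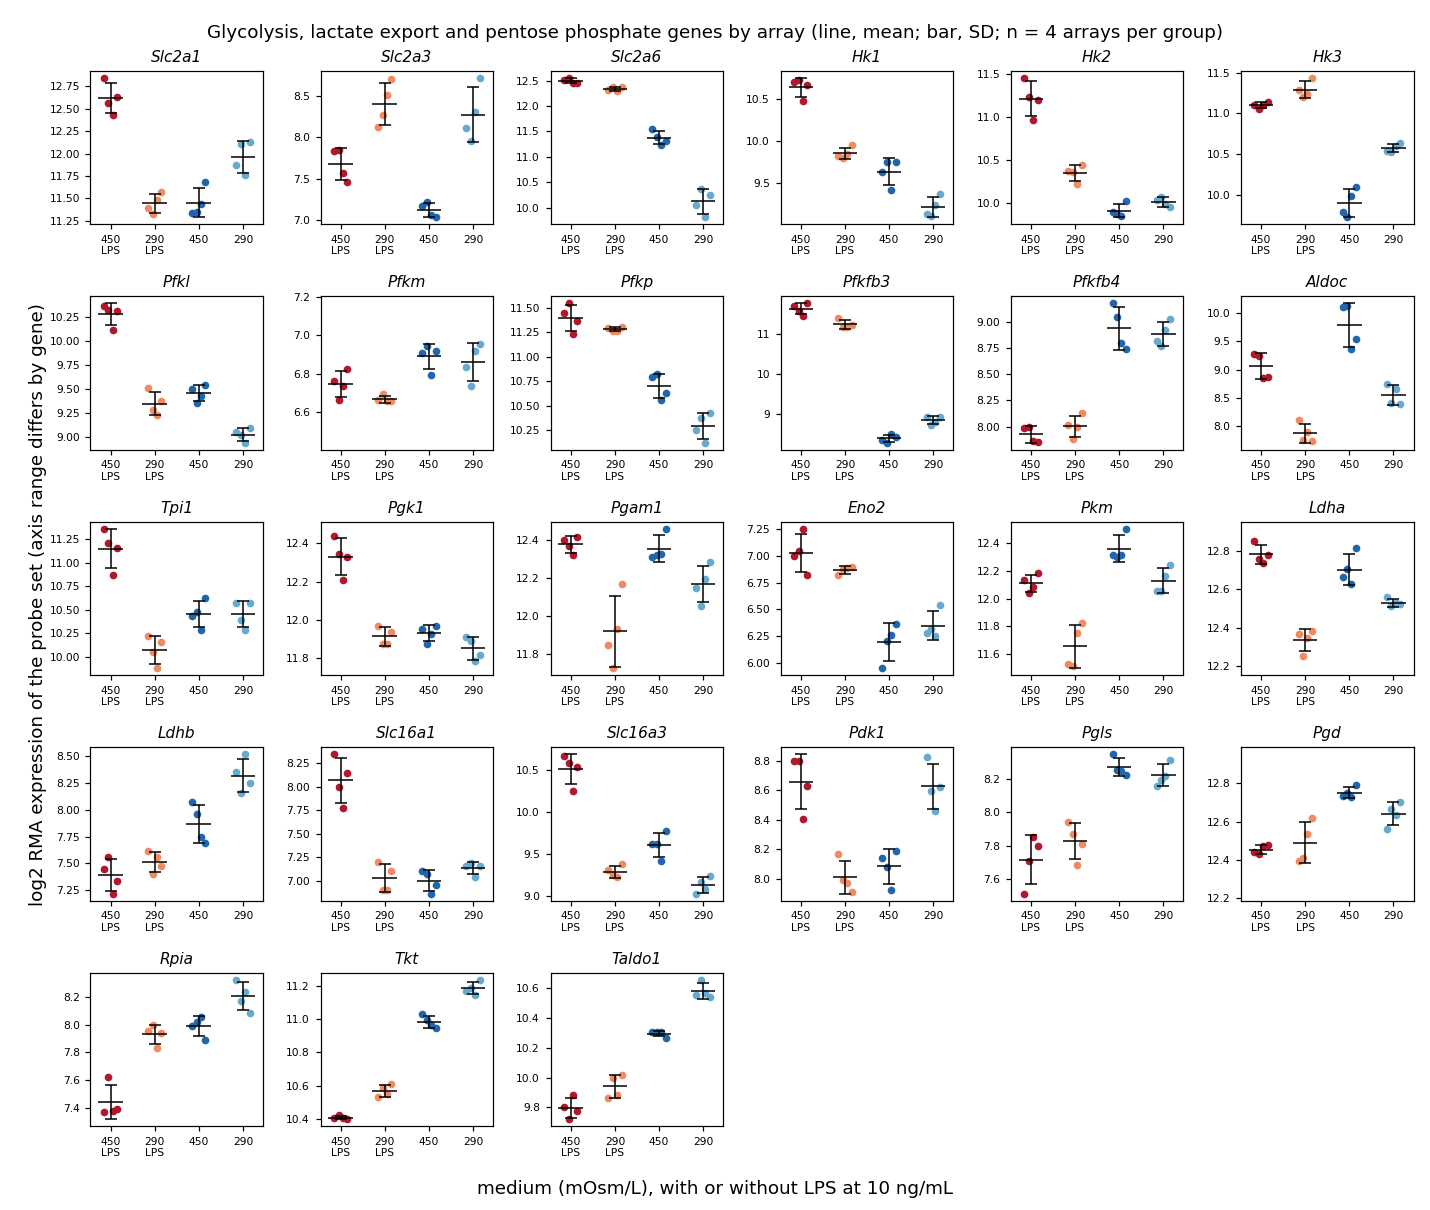
Deposited log2 expression (y axis, 1 panel and scale a gene) of the 27 genes in pathway order, with the 4 arrays of each group as points, the mean as a line and the SD as a bar. The points of 450 mOsm with LPS stand above all others for Slc2a1, Hk2, Tpi1, Slc16a1 and Slc16a3, and the lowest points of Rpia and Tkt are in the same group.

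The 250 bases before each RefSeq start were searched for ACGTG or GCGTG on either strand, the core letters of the element that HIF binds. ACGTG is also contained in CACGTG, the E-box bound by MYC and USF proteins. A window was available for 26 of the 27 genes, and 24 of the 26 (92.3%) held at least 1 match, where 61.4% of tested genes with a window did and 41.5% of all genes with a window did. Of the 14 genes that rose with salt under LPS, 13 held a match and 9 held 2 or more, where 31.9% of tested genes with a window held 2 or more. Of the 4 that fell and had a window, 4 held a match and 0 held 2 or more, and of the 8 not called, 7 and 3 did. The tonicity element of the osmotic stress factor Nfat5 was found in 1 of the 26 (3.85%), where 3.8% of tested genes held it. A match describes the letters and not binding; a CACGTG counts as 2 matches, and a gene with several starts is counted by the window with most matches. Windows of the 3 transporter genes that rose with salt under LPS, of Ldha and Tpi1, which also rose, and of Tkt, which fell, are shown 5′ to 3′ on the gene's own strand, 1 window a gene, in GRCm38.p6 from RefSeq, ending at the base before the start; capitals mark the matches.
Slc2a1 (chr4:119108495-119108744, + strand): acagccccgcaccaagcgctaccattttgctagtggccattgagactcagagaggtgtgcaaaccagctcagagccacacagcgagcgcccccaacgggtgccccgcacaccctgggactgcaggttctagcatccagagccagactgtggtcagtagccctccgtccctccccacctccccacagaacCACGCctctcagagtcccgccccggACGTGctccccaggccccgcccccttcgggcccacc
Slc16a1 (chr3:104638414-104638663, + strand): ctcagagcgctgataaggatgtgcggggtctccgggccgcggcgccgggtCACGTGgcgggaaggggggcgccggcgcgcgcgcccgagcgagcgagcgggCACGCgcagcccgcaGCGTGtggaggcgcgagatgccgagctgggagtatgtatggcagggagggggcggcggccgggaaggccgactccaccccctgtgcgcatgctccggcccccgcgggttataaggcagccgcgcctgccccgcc
Slc16a3 (chr11:120948817-120949066, + strand): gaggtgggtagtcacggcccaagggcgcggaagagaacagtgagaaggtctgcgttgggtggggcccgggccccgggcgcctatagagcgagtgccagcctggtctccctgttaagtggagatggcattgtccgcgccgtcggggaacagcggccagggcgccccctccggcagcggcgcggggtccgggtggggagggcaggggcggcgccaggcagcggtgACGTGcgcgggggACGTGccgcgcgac
Ldha (chr7:46845554-46845803, + strand): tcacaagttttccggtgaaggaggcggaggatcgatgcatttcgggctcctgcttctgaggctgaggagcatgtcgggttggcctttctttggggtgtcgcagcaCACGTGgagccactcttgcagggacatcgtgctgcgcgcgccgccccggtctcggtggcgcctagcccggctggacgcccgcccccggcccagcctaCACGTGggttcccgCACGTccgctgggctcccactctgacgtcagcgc
Tpi1 (chr6:124814159-124814408, - strand): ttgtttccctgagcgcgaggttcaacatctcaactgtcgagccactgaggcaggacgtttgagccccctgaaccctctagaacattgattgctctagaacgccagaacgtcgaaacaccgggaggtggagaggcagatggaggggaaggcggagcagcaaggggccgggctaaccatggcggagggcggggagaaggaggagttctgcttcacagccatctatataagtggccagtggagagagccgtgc
Tkt (chr14:30548881-30549130, + strand): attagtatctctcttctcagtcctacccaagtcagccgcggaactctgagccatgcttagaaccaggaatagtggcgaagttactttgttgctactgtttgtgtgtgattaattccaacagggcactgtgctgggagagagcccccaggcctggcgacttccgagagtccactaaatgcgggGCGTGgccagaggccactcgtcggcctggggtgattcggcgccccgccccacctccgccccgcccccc
In Slc16a3 the matches start 27 and 14 bases before the start, both on the gene's strand, and in Slc2a1 they start 61 and 36 bases before it. Slc16a1 and Ldha hold CACGTG, which matches on both strands: once in Slc16a1, 200 bases before the start and followed by GCGTG on opposite strands at 149 and 134 bases, and at 145 and 48 bases before the start in Ldha, which has another ACGTG 34 bases before it on the opposite strand. Tpi1, which rose 2.09-fold, holds no match in this window, and Tkt, which fell, holds 1.

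Glucose entry came first. Slc2a1 encodes GLUT1, the glucose transporter of most cultured cells. It read 12.85, 12.56, 12.43 and 12.63 at 450 mOsm with LPS, against 11.40, 11.33, 11.49 and 11.57 at 290 mOsm with LPS. Without LPS, Slc2a1 read 11.33, 11.35, 11.44 and 11.68 at 450 mOsm, against 11.87, 12.10, 11.76 and 12.13 at 290 mOsm. Every array with salt and LPS stood above every other array, and the resting cells at high salt stood below all resting cells at normal salt. Salt went with a rise of 1.17 ± 0.10 (log2 change ± limma SE) under LPS, 2.26-fold (adjusted p = 5.09e-08), and with a change of -0.51 ± 0.10 without LPS, 1.43-fold lower (adjusted p = 0.000459). The interaction of 1.69 ± 0.14 was the largest among the 27 genes (adjusted p = 1.68e-07). LPS changed Slc2a1 by 1.17 ± 0.10 at 450 mOsm and by -0.52 ± 0.10 at 290 mOsm.

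Slc2a3, which encodes the high-affinity transporter GLUT3, fell with salt in both states. It read 7.83, 7.85, 7.57 and 7.45 at 450 mOsm with LPS, against 8.12, 8.28, 8.51 and 8.70 at 290 mOsm with LPS. Without LPS, Slc2a3 read 7.17, 7.22, 7.06 and 7.03 at 450 mOsm, against 8.11, 7.95, 8.31 and 8.72 at 290 mOsm. The high-salt arrays lay below the normal-salt arrays in both pairs. Its salt change was -0.73 ± 0.14 under LPS (adjusted p = 0.000567) and -1.15 ± 0.14 without LPS (adjusted p = 5.41e-06), and the interaction was not called (0.42 ± 0.20, adjusted p = 0.158). LPS raised it by 0.55 ± 0.14 at 450 mOsm; at 290 mOsm the difference was 0.13 ± 0.14 and was not called. Most of the neutrophil genes described above fell in the same salt comparisons, and whether this bears on the Slc2a3 change was not tested.

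Slc2a6 encodes GLUT6, a lysosomal member of the family. It read 12.51, 12.56, 12.45 and 12.46 at 450 mOsm with LPS, against 12.31, 12.37, 12.30 and 12.37 at 290 mOsm with LPS. Without LPS, Slc2a6 read 11.54, 11.39, 11.24 and 11.32 at 450 mOsm, against 10.06, 10.36, 9.81 and 10.25 at 290 mOsm. The resting groups were far apart and the LPS groups were close, though none of the 4 arrays of 450 mOsm with LPS fell among those of 290 mOsm with LPS. Salt raised it by 1.25 ± 0.09 without LPS (2.38-fold, adjusted p = 6.56e-09), and the difference under LPS was 0.16 ± 0.09, which was not called (adjusted p = 0.179) unless those 2 groups were fitted alone (0.0186). The interaction was -1.09 ± 0.13 (adjusted p = 7.84e-06). LPS raised Slc2a6 by 1.12 ± 0.09 at 450 mOsm and by 2.22 ± 0.09 at 290 mOsm, 4.64-fold.

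The 3 hexokinases, which phosphorylate glucose and so hold it in the cell, all rose with LPS at both osmolarities and differed in their response to salt. Hk2, the inducible mitochondria-binding isozyme, read 11.46, 11.23, 10.97 and 11.20 at 450 mOsm with LPS, against 10.37, 10.36, 10.22 and 10.44 at 290 mOsm with LPS. Without LPS, Hk2 read 9.90, 9.87, 9.84 and 10.02 at 450 mOsm, against 10.03, 10.07, 9.99 and 9.94 at 290 mOsm. The LPS groups did not overlap and the resting groups did. Its salt rise was 0.87 ± 0.08 under LPS (1.82-fold, adjusted p = 1.56e-07); the resting difference was -0.10 ± 0.08 (95% interval -0.27 to 0.07) and was not called. The interaction was 0.97 ± 0.11 (adjusted p = 7.61e-06).

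Hk1, the broadly expressed isozyme, averaged 10.64 ± 0.11 (SD of 4 arrays, as for all means below) at 450 mOsm with LPS, against 9.86 ± 0.07 at 290 mOsm with LPS. Without LPS, Hk1 averaged 9.64 ± 0.16 at 450 mOsm and 9.21 ± 0.12 at 290 mOsm. Each group lay apart from the next, in that order. Salt raised it by 0.79 ± 0.08 with LPS and by 0.42 ± 0.08 without, and the interaction of 0.36 ± 0.11 (adjusted p = 0.0244) was lost under quantile normalization (adjusted p = 0.104), without mouse 1, 2 or 4 (0.107, 0.0650 and 0.0510), and without any of the 290 mOsm replicate 4 and the 450 mOsm with LPS replicates 1 and 2 arrays (0.0502 to 0.0557).

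Hk3, an isozyme of myeloid cells, averaged 11.10 ± 0.04 at 450 mOsm with LPS, against 11.29 ± 0.10 at 290 mOsm with LPS. Without LPS, Hk3 averaged 9.91 ± 0.17 at 450 mOsm and 10.57 ± 0.05 at 290 mOsm. It was lower at high salt in both pairs. The change without LPS was -0.67 ± 0.07 (adjusted p = 8.86e-07), and the change with LPS of -0.19 ± 0.07 (adjusted p = 0.0418) was not called when any of the 4 mice was left out (adjusted p from 0.0605 to 0.123), without the filter (0.0738), or under quantile or cyclic loess scaling (0.132 and 0.142). Its interaction was 0.48 ± 0.10 (adjusted p = 0.00198). LPS raised Hk3 by 1.20 ± 0.07 at 450 mOsm and by 0.72 ± 0.07 at 290 mOsm.

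**Figure D2:**
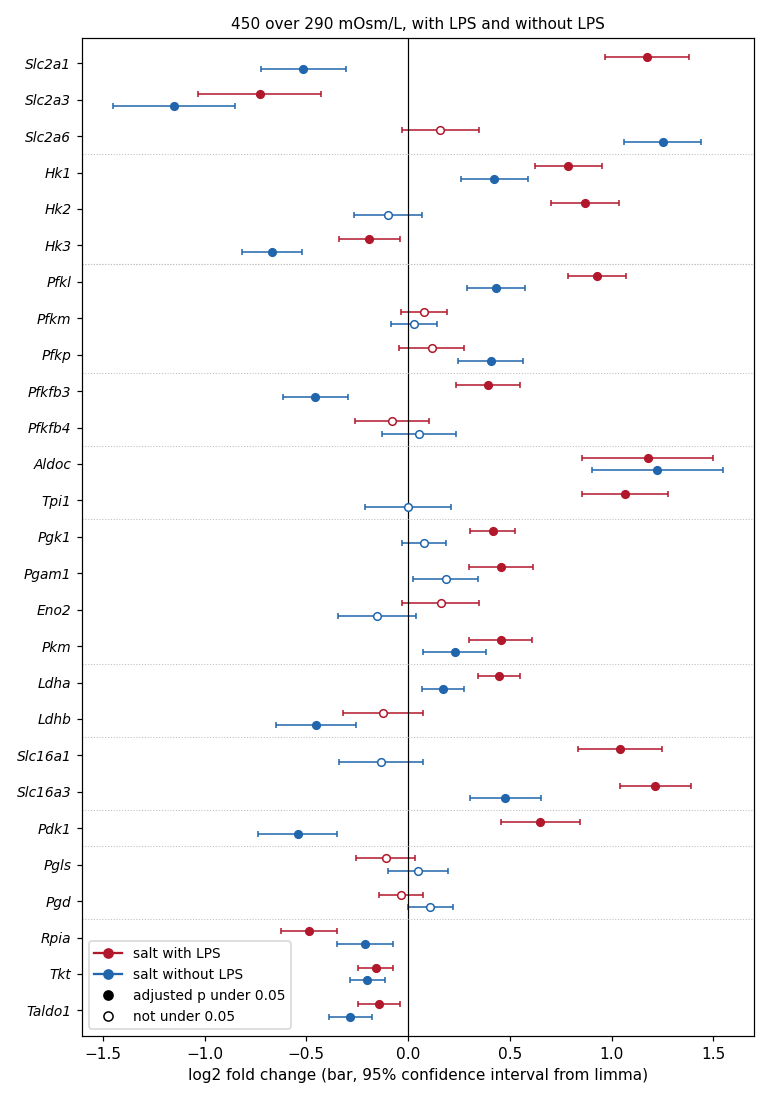
Log2 fold changes of 450 over 290 mOsm for the 27 genes, with LPS (red, upper point of each gene) and without LPS (blue, lower point), with 95% confidence intervals from limma; filled points had an adjusted p under 0.05 and dotted lines separate pathway steps. Slc2a1, Pfkfb3 and Pdk1 have red points above 0 and blue points below it, at 1.17 and -0.51, 0.39 and -0.46, and 0.65 and -0.54.

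At the phosphofructokinase step, the liver-type subunit gene Pfkl read 10.37, 10.32, 10.12 and 10.31 at 450 mOsm with LPS, against 9.51, 9.29, 9.23 and 9.38 at 290 mOsm with LPS. Without LPS, Pfkl read 9.50, 9.36, 9.43 and 9.55 at 450 mOsm, against 9.05, 9.02, 8.94 and 9.09 at 290 mOsm. The 450 mOsm arrays with LPS stood above all others and the 290 mOsm arrays without LPS below all others. Salt raised it by 0.93 ± 0.07 with LPS (1.9-fold, adjusted p = 9.44e-09) and by 0.43 ± 0.07 without LPS (adjusted p = 7.05e-05), and the interaction was 0.50 ± 0.10 (adjusted p = 0.000896).

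The platelet-type subunit gene Pfkp averaged 11.40 ± 0.13 at 450 mOsm with LPS, against 11.28 ± 0.02 at 290 mOsm with LPS. Without LPS, Pfkp averaged 10.70 ± 0.13 at 450 mOsm and 10.30 ± 0.14 at 290 mOsm. The LPS groups overlapped and the resting groups did not. Salt raised Pfkp by 0.41 ± 0.08 without LPS, and the interaction of -0.29 ± 0.11 had an adjusted p of 0.0664, or 0.0249 with the mouse as a replicate block. LPS raised it by 0.70 ± 0.08 at 450 mOsm and by 0.98 ± 0.08 at 290 mOsm. The muscle-type subunit gene Pfkm was dim and exceeded the filter level of 6.83 on 6 arrays, all of them without LPS. It averaged 6.75 ± 0.07 at 450 mOsm with LPS and 6.89 ± 0.07 at 450 mOsm. At 290 mOsm, Pfkm averaged 6.67 ± 0.02 with LPS and 6.86 ± 0.10 without LPS. Its LPS change was -0.19 ± 0.05 at 290 mOsm (adjusted p = 0.00349). Pfkm passed the filter through arrays without LPS alone, so a fall with LPS is not independent of the filter. The LPS change of -0.14 ± 0.05 at 450 mOsm was lost without the filter (0.0533), under quantile, cyclic loess and median scaling (0.0592, 0.130 and 0.113), and without mouse 1 or 2 (0.0868 and 0.153).

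Pfkfb3 and Pfkfb4 make fructose 2,6-bisphosphate, and they moved in opposite directions with LPS. Pfkfb3, the isozyme with the strongest kinase activity, read 11.72, 11.60, 11.47 and 11.79 at 450 mOsm with LPS, against 8.34, 8.27, 8.49 and 8.43 at 450 mOsm. At 290 mOsm, Pfkfb3 read 11.42, 11.18, 11.19 and 11.23 with LPS, against 8.92, 8.71, 8.80 and 8.92 without it. No array without LPS came near an array with it. The LPS rise was 3.26 ± 0.08 at 450 mOsm (9.6-fold, adjusted p = 1.18e-16) and 2.42 ± 0.08 at 290 mOsm (5.33-fold, adjusted p = 4.29e-15), the largest LPS changes among the 27 genes. Salt changed Pfkfb3 by 0.39 ± 0.08 with LPS and by -0.46 ± 0.08 without LPS, and the interaction was 0.85 ± 0.11 (adjusted p = 1.63e-05). Pfkfb4 averaged 7.93 ± 0.08 at 450 mOsm with LPS and 8.94 ± 0.21 at 450 mOsm. At 290 mOsm, Pfkfb4 averaged 8.01 ± 0.10 with LPS and 8.88 ± 0.11 without LPS. It fell with LPS at both osmolarities (-1.01 ± 0.09 and -0.87 ± 0.09), and salt was not called in either state, with intervals of -0.26 to 0.10 with LPS and -0.13 to 0.24 without.

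Aldolase C and triose phosphate isomerase act where the sugar is split. Aldoc read 9.28, 9.23, 8.86 and 8.87 at 450 mOsm with LPS, against 8.11, 7.76, 7.91 and 7.75 at 290 mOsm with LPS. Without LPS, Aldoc read 10.09, 10.12, 9.35 and 9.54 at 450 mOsm, against 8.74, 8.41, 8.66 and 8.39 at 290 mOsm. High salt stood above normal salt in both pairs, and within each high-salt group replicates 1 and 2 stood above replicates 3 and 4. The salt rise was 1.18 ± 0.15 with LPS (2.26-fold, adjusted p = 9.42e-06) and 1.22 ± 0.15 without (2.34-fold, adjusted p = 6.05e-06), with an interaction of -0.05 ± 0.22 (95% interval -0.50 to 0.41) that was not called. LPS lowered Aldoc by 0.72 at 450 mOsm and by 0.67 at 290 mOsm on the log2 scale. Tpi1, which interconverts the triose phosphates, read 11.36, 11.20, 10.86 and 11.15 at 450 mOsm with LPS, against 10.22, 10.05, 9.88 and 10.16 at 290 mOsm with LPS. Without LPS, Tpi1 averaged 10.46 ± 0.14 at 450 mOsm and 10.45 ± 0.14 at 290 mOsm. Salt raised it 2.09-fold with LPS (1.07 ± 0.10, adjusted p = 2.18e-07), and without LPS the change was 0.00 ± 0.10 with a 95% interval of -0.21 to 0.21. The interaction was 1.06 ± 0.14 (adjusted p = 3.09e-05), and LPS changed Tpi1 by 0.69 ± 0.10 at 450 mOsm and by -0.38 ± 0.10 at 290 mOsm.

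Below the split lie the steps that lead to pyruvate. Pgk1, which forms ATP from bisphosphoglycerate, read 12.44, 12.35, 12.21 and 12.33 at 450 mOsm with LPS, against 11.97, 11.87, 11.87 and 11.94 at 290 mOsm with LPS. Without LPS, Pgk1 averaged 11.93 ± 0.04 at 450 mOsm and 11.85 ± 0.06 at 290 mOsm. That difference of 0.08 ± 0.05 was called only under cyclic loess scaling (0.14, adjusted p = 0.0434). The arrays with both salt and LPS lay apart from the other 12. Its salt rise with LPS was 0.42 ± 0.05 (adjusted p = 6.16e-06) and its interaction 0.34 ± 0.07 (adjusted p = 0.00279), which was not called without mouse 2 (adjusted p = 0.0624). LPS raised Pgk1 by 0.40 ± 0.05 at 450 mOsm. At 290 mOsm the difference of 0.06 ± 0.05 was called only under cyclic loess scaling (0.15, adjusted p = 0.0143). Pgam1, the next mutase, averaged 12.37 ± 0.04 at 450 mOsm with LPS, against 11.92 ± 0.19 at 290 mOsm with LPS. Without LPS, Pgam1 averaged 12.35 ± 0.07 at 450 mOsm and 12.17 ± 0.10 at 290 mOsm. Salt raised it by 0.46 ± 0.08 with LPS (adjusted p = 0.000115). Without LPS the difference of 0.18 ± 0.08 had an adjusted p of 0.0549, or 0.0161 with the mouse as a replicate block, and the interaction of 0.27 ± 0.11 had 0.0818, or 0.0237 with the block. The difference without LPS was called in 11 of 32 settings and the interaction in 5 of 31. LPS lowered Pgam1 by 0.25 at 290 mOsm (adjusted p = 0.00621), a call that cyclic loess scaling removed (-0.16, adjusted p = 0.0759).

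Eno2, the neuronal-type enolase, was dim: it exceeded the filter level on 6 arrays, all of them with LPS. Its means were 7.03 ± 0.18 at 450 mOsm with LPS and 6.20 ± 0.17 at 450 mOsm. At 290 mOsm, Eno2 averaged 6.87 ± 0.03 with LPS and 6.35 ± 0.13 without LPS. It rose with LPS by 0.83 ± 0.09 and 0.52 ± 0.09 at 450 and 290 mOsm. Eno2 passed the filter through arrays with LPS alone, so this rise is not independent of the filter. Its salt differences were 0.16 ± 0.09 with LPS and -0.15 ± 0.09 without LPS and were not called, but Eno2 was called higher with LPS without mouse 4 (0.24, adjusted p = 0.0404) and lower without LPS under quantile and cyclic loess scaling (-0.24 in both, 0.0415 and 0.0327). Its interaction of 0.31 ± 0.13 (adjusted p = 0.0977) was called under quantile scaling (0.0401), without mouse 4 (0.0415) and without the 450 mOsm with LPS replicate 4 array (0.0380). Pkm, pyruvate kinase, averaged 12.11 ± 0.06 at 450 mOsm with LPS, against 11.66 ± 0.16 at 290 mOsm with LPS. Without LPS, Pkm averaged 12.36 ± 0.10 at 450 mOsm and 12.13 ± 0.09 at 290 mOsm. Its level was higher at high salt in both states and lower with LPS at both osmolarities. The salt rise was 0.45 ± 0.07 with LPS (adjusted p = 8.45e-05) and 0.23 ± 0.07 without LPS (adjusted p = 0.0174). The rise without LPS was not called without the array of 450 mOsm replicate 4 (0.18, adjusted p = 0.0648), without either of the 290 mOsm arrays of replicates 1 and 2 (0.0543 and 0.0506), or without mouse 1 or 2 altogether (0.0645 and 0.0589). LPS changed Pkm by -0.25 ± 0.07 at 450 mOsm, a call lost under cyclic loess (adjusted p = 0.0540), and by -0.47 ± 0.07 at 290 mOsm. The interaction for Pkm was 0.23 ± 0.10 with an adjusted p of 0.135, or 0.0331 with the mouse as a replicate block.

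Lactate is made by tetramers of the Ldha and Ldhb products, of which the Ldha form favours the step from pyruvate to lactate. Ldha read 12.85, 12.76, 12.74 and 12.78 at 450 mOsm with LPS, against 12.37, 12.25, 12.34 and 12.38 at 290 mOsm with LPS. Without LPS, Ldha read 12.67, 12.70, 12.63 and 12.82 at 450 mOsm, against 12.56, 12.51, 12.53 and 12.52 at 290 mOsm. High salt stood above normal salt in both pairs, by a small margin in resting cells. The rise was 0.45 ± 0.05 with LPS (1.36-fold, adjusted p = 1.43e-06) and 0.17 ± 0.05 without LPS (adjusted p = 0.00941), where it was not called without mouse 2 or 4 (adjusted p of 0.0566 and 0.0829) or under median centring (0.0592). The interaction was 0.27 ± 0.07 (adjusted p = 0.00864), lost without mouse 1 or 2 (0.0834 and 0.0698). LPS lowered Ldha by 0.19 at 290 mOsm (adjusted p = 0.00176), a call that cyclic loess scaling removed (-0.11, adjusted p = 0.0604). At 450 mOsm the LPS difference of 0.08 ± 0.05 was not called (adjusted p = 0.162). It was called higher under cyclic loess (0.14, 0.0255), under median centring (0.0268) and without the 450 mOsm replicate 4 array (0.0387). Ldhb averaged 7.39 ± 0.15 at 450 mOsm with LPS and 7.86 ± 0.18 at 450 mOsm. At 290 mOsm, Ldhb averaged 7.51 ± 0.09 with LPS and 8.32 ± 0.15 without LPS. It fell with LPS by 0.47 at 450 mOsm and by 0.81 at 290 mOsm, and salt lowered it by 0.45 in resting cells (adjusted p = 0.000849). With LPS the salt change of -0.12 ± 0.09 was not called (adjusted p = 0.310). The interaction for Ldhb was not called either (0.33 ± 0.13, adjusted p = 0.0877).

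Both lactate transporter genes rose with salt under LPS. Slc16a3 encodes MCT4, the exporter of strongly glycolytic cells. It read 10.67, 10.59, 10.25 and 10.54 at 450 mOsm with LPS, against 9.31, 9.25, 9.23 and 9.39 at 290 mOsm with LPS. Without LPS, Slc16a3 read 9.63, 9.63, 9.42 and 9.77 at 450 mOsm, against 9.03, 9.17, 9.09 and 9.24 at 290 mOsm. The arrays with both salt and LPS were the highest, those with salt alone came next, and no array of 290 mOsm reached either. The salt rise was 1.22 ± 0.08 with LPS (2.32-fold, adjusted p = 5.22e-09), the largest among the 27 genes in that comparison, and 0.48 ± 0.08 without LPS (adjusted p = 0.000203). The interaction was 0.74 ± 0.12 (adjusted p = 0.000192). LPS raised it by 0.90 ± 0.08 at 450 mOsm, and at 290 mOsm the difference of 0.16 ± 0.08 had an adjusted p of 0.0933, or 0.0354 with the mouse as a replicate block. Cyclic loess scaling gave 0.31 at 290 mOsm (adjusted p = 0.00397), and 7 of 32 settings called that rise.

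Slc16a1 encodes MCT1, a carrier of lactate in either direction. It read 8.35, 8.0, 7.77 and 8.15 at 450 mOsm with LPS, against 7.20, 6.91, 6.90 and 7.10 at 290 mOsm with LPS. Without LPS, Slc16a1 read 7.10, 7.07, 6.86 and 6.96 at 450 mOsm, against 7.15, 7.18, 7.04 and 7.15 at 290 mOsm. The other 12 arrays lay between 6.86 and 7.20, below all 4 arrays with salt and LPS. Salt raised it by 1.04 ± 0.10 with LPS (2.06-fold, adjusted p = 2.19e-07), with an interaction of 1.17 ± 0.14 (adjusted p = 9.05e-06), and LPS raised it by 1.07 ± 0.10 at 450 mOsm. Neither agent alone was called for Slc16a1, with intervals of -0.34 to 0.07 for salt without LPS and -0.31 to 0.10 for LPS at 290 mOsm.

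Pdk1, a kinase that inactivates pyruvate dehydrogenase and so keeps pyruvate out of mitochondrial oxidation, read 8.80, 8.80, 8.41 and 8.63 at 450 mOsm with LPS, against 8.17, 7.99, 7.97 and 7.91 at 290 mOsm with LPS. Without LPS, Pdk1 read 8.14, 8.08, 7.92 and 8.19 at 450 mOsm, against 8.83, 8.59, 8.46 and 8.63 at 290 mOsm. Cells with both agents and cells with neither overlapped at the top, and cells with either agent alone overlapped at the bottom. The salt change was 0.65 ± 0.09 with LPS (adjusted p = 2.29e-05) and -0.54 ± 0.09 without LPS (adjusted p = 0.000151), with an interaction of 1.19 ± 0.13 (adjusted p = 3.79e-06). LPS changed Pdk1 by 0.58 ± 0.09 at 450 mOsm and by -0.62 ± 0.09 at 290 mOsm.

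**Figure D3:**
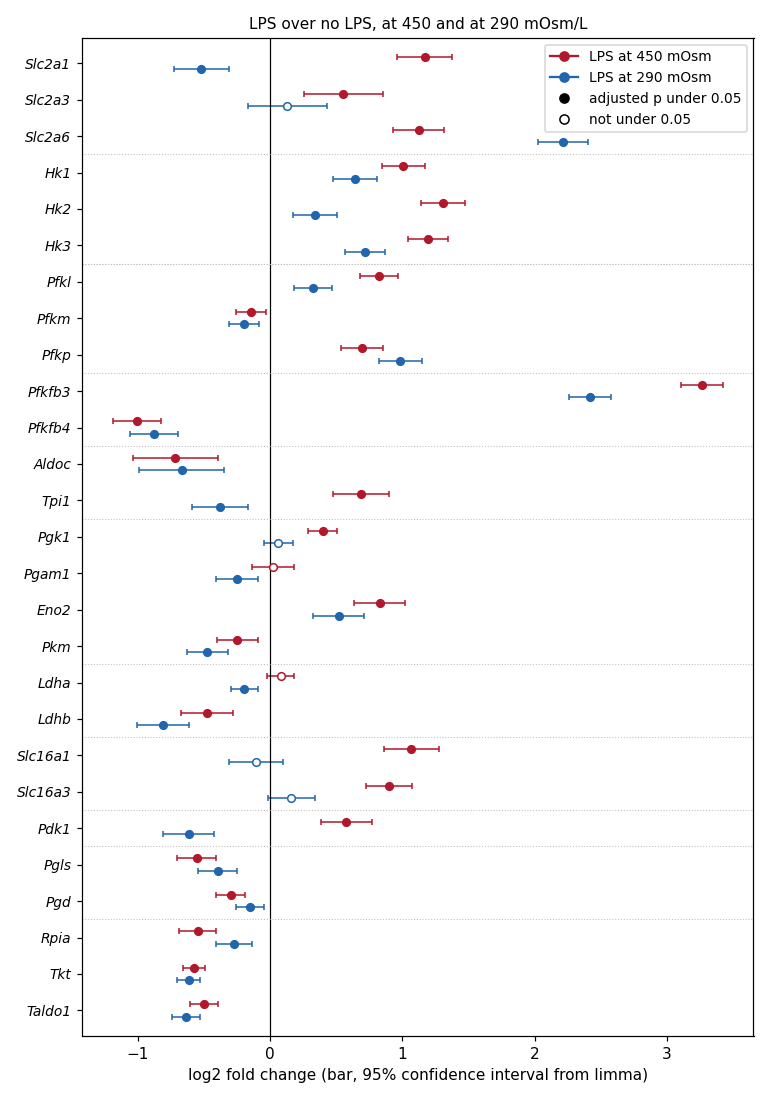
Log2 fold changes of LPS over no LPS for the 27 genes, at 450 mOsm (red, upper point of each gene) and at 290 mOsm (blue, lower point), with 95% confidence intervals from limma; filled points had an adjusted p under 0.05 and dotted lines separate pathway steps. Pfkfb3 lies farthest right at 3.26 and 2.42, Slc2a1, Tpi1 and Pdk1 have red points above 0 and blue points below it, and the pentose phosphate genes at the bottom lie below 0 in both.

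None of the 5 measured pentose phosphate genes of the set (Pgd, Pgls, Rpia, Tkt and Taldo1) was called higher in any of the 5 comparisons as reported. Of all genes tested, 10.7% to 26.4% were called higher in a comparison, so few of 5 would be higher at those shares. In the oxidative arm, Pgd, which makes NADPH from 6-phosphogluconate, averaged 12.45 ± 0.02 at 450 mOsm with LPS and 12.75 ± 0.03 at 450 mOsm. At 290 mOsm, Pgd averaged 12.49 ± 0.11 with LPS and 12.64 ± 0.06 without LPS. LPS lowered it by 0.30 at 450 mOsm (adjusted p = 5.03e-05) and by 0.15 at 290 mOsm, where the call was lost without mouse 2 (adjusted p = 0.127), without either of the 290 mOsm with LPS arrays of mice 1 and 2 (0.0551 and 0.0519), and under cyclic loess (-0.07, adjusted p = 0.243). Quantile and cyclic loess scaling of the deposited values and a trended, robust variance called Pgd higher at 450 than at 290 mOsm without LPS (0.19, 0.17 and 0.11), against 0.11 ± 0.05 and an adjusted p of 0.0954 as reported. Pgls, the lactonase before it, averaged 7.72 ± 0.15 at 450 mOsm with LPS and 8.27 ± 0.05 at 450 mOsm. At 290 mOsm, Pgls averaged 7.83 ± 0.11 with LPS and 8.22 ± 0.07 without LPS. Its LPS change was -0.56 ± 0.07 at 450 mOsm and -0.40 ± 0.07 at 290 mOsm, and neither oxidative gene was called for salt.

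The 3 non-oxidative genes were lower with salt and lower with LPS. Of all genes tested, 21.8% were lower with salt under LPS and 23.7% without LPS. LPS lowered 45.3% of all genes at 450 mOsm and 47.1% at 290 mOsm. Rpia, which isomerises ribose 5-phosphate, read 7.37, 7.62, 7.38 and 7.39 at 450 mOsm with LPS, against 7.95, 7.99, 7.83 and 7.94 at 290 mOsm with LPS. Without LPS, Rpia read 7.99, 8.02, 8.06 and 7.89 at 450 mOsm, against 8.32, 8.17, 8.23 and 8.08 at 290 mOsm. Cells with both agents were lowest, and the replicate 2 array stood above the other 3 of that group. The salt change was -0.49 ± 0.07 with LPS (adjusted p = 1.26e-05) and -0.21 ± 0.07 without LPS (adjusted p = 0.0142), and the change without LPS was not called without mouse 1 (-0.17, adjusted p = 0.0979) or its 290 mOsm array (0.0552). The interaction of -0.27 ± 0.09 (adjusted p = 0.042) was not called without any 1 of the 4 mice (adjusted p from 0.0718 to 0.137), without the filter (0.0863) or under median centring (0.107), and the LPS change at 290 mOsm of -0.27 ± 0.07 was not called under quantile or cyclic loess scaling (0.0864 and 0.117).

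Tkt, transketolase, links ribose to glycolysis by moving carbon pairs between sugars. It read 10.40, 10.42, 10.41 and 10.40 at 450 mOsm with LPS, against 10.53, 10.58, 10.55 and 10.61 at 290 mOsm with LPS. Without LPS, Tkt read 11.03, 10.99, 10.96 and 10.95 at 450 mOsm, against 11.17, 11.19, 11.14 and 11.23 at 290 mOsm. All 4 groups lay apart from each other, lowest with both agents. Salt changed it by -0.16 ± 0.04 with LPS (adjusted p = 0.00488) and -0.20 ± 0.04 without LPS (adjusted p = 0.000755), and LPS by -0.57 ± 0.04 at 450 mOsm and -0.62 ± 0.04 at 290 mOsm. Taldo1, transaldolase, averaged 9.80 ± 0.07 at 450 mOsm with LPS, against 9.94 ± 0.08 at 290 mOsm with LPS. Without LPS, Taldo1 averaged 10.29 ± 0.02 at 450 mOsm and 10.58 ± 0.05 at 290 mOsm. It changed with salt by -0.28 ± 0.05 without LPS (adjusted p = 0.000214), and the change of -0.14 ± 0.05 with LPS was not called without mouse 1, 2 or 4 (adjusted p from 0.0564 to 0.217), without the filter (0.0723), or under quantile and cyclic loess scaling (0.144 and 0.157). LPS lowered Taldo1 by 0.50 at 450 mOsm and by 0.64 at 290 mOsm.

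Neighbouring genes of the pathway were described from lists of related genes, whose counts stand beside 16.8% higher and 21.8% lower among all genes for salt with LPS, and 20.6% and 23.7% without LPS. Among 8 HIF pathway regulators, 4 were higher and 0 lower at 450 than at 290 mOsm with LPS (median 0.16), and 2 were higher and 1 lower without LPS (median 0.11). Egln1, an oxygen-sensing prolyl hydroxylase that marks HIF for destruction and is itself a HIF target, averaged 10.00 at 450 mOsm with LPS against 8.58 at 290 mOsm with LPS, a rise of 1.42 ± 0.08, and rose by 0.32 ± 0.08 without LPS (interaction 1.10 ± 0.11, adjusted p = 9.98e-07). Egln3, a related hydroxylase, rose by 1.09 ± 0.15 with LPS (8.32 against 7.23), with an interaction of 1.26 ± 0.21 (adjusted p = 0.000228). Hif1a, which encodes the regulated HIF subunit, rose by 1.00 ± 0.08 with LPS and by 0.58 ± 0.08 without LPS. LPS changed Egln1 by 0.78 ± 0.08 at 450 mOsm and by -0.33 ± 0.08 at 290 mOsm. It raised Egln3 by 2.30 ± 0.15 and 1.04 ± 0.15, and Hif1a by 1.28 ± 0.08 and 0.86 ± 0.08, at 450 and 290 mOsm.

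Of 10 glycogen genes tested, 2 were higher and 4 lower with salt under LPS, and 0 were higher and 5 lower without LPS. Gys1, glycogen synthase, averaged 9.62 at 450 mOsm with LPS against 8.10 at 290 mOsm with LPS, a rise of 1.52 ± 0.08 (adjusted p = 3.11e-10). Pgm1, a phosphoglucomutase gene, rose by 0.97 ± 0.08, and Pygl, a glycogen phosphorylase, changed by -0.78 ± 0.10. The interactions of the 3 genes were 1.41 ± 0.12, 0.85 ± 0.11 and -0.48 ± 0.15, each called. Among 7 tested regulators of glycolysis, Txnip, which limits glucose uptake by removing GLUT1 from the cell surface, changed by -1.03 ± 0.06 with salt under LPS (10.17 against 11.20) and by -0.26 ± 0.06 without LPS (interaction -0.77 ± 0.09, adjusted p = 6.9e-06). Bsg, the chaperone of MCT1 and MCT4, and Tigar, a fructose bisphosphatase, rose by 0.25 ± 0.05 and 0.19 ± 0.04 under LPS. In that list 2 were higher and 1 lower with LPS, and 1 was higher and 4 lower without LPS.

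Few genes that feed pyruvate into mitochondria were called for salt: of 10 tested, 0 were higher and 2 lower under LPS, and 1 was higher and 0 lower without LPS. Under LPS, salt lowered Pdha1, a catalytic subunit of pyruvate dehydrogenase, by 0.37 and Pdp1, the phosphatase that activates it, by 0.46. In the LPS comparisons 1 was higher and 7 lower at 450 mOsm, and 1 was higher and 6 lower at 290 mOsm, where 45.3% and 47.1% of all genes were lower. The kinase genes Pdk2 and Pdk3 went opposite ways, with -1.29 ± 0.12 and 1.23 ± 0.13 at 450 mOsm and -1.62 ± 0.12 and 0.82 ± 0.13 at 290 mOsm. Of 4 other monocarboxylate transporters tested, 0 were higher and 3 lower with salt under LPS, led by Slc16a6 (-1.23 ± 0.09), against the rise of Slc16a1 and Slc16a3; without LPS 1 was higher and 1, Slc16a6, was lower (-1.01 ± 0.09). Of 5 other glucose transporters and glycolytic isozymes tested, 0 were higher and 1 lower with salt under LPS and 1 was higher and 1 lower without LPS, with Adpgk, an ADP-dependent glucokinase, at -0.97 ± 0.07 and -0.83 ± 0.07. Among 5 other pentose and ribose genes, 1 was higher and 2 lower with salt under LPS and 1 was higher and 3 lower without LPS. H6pd, the NADPH-making dehydrogenase of the endoplasmic reticulum, rose by 0.25 ± 0.07 and 0.46 ± 0.07, and Rbks, ribokinase, changed by -0.42 ± 0.07 under LPS. Of 4 gluconeogenic genes tested, 2 were higher with salt under LPS and 1 without LPS, 0 were lower in either, and Slc37a4, the glucose 6-phosphate carrier of the endoplasmic reticulum, rose by 0.60 ± 0.07 under LPS.

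**Figure D4:**
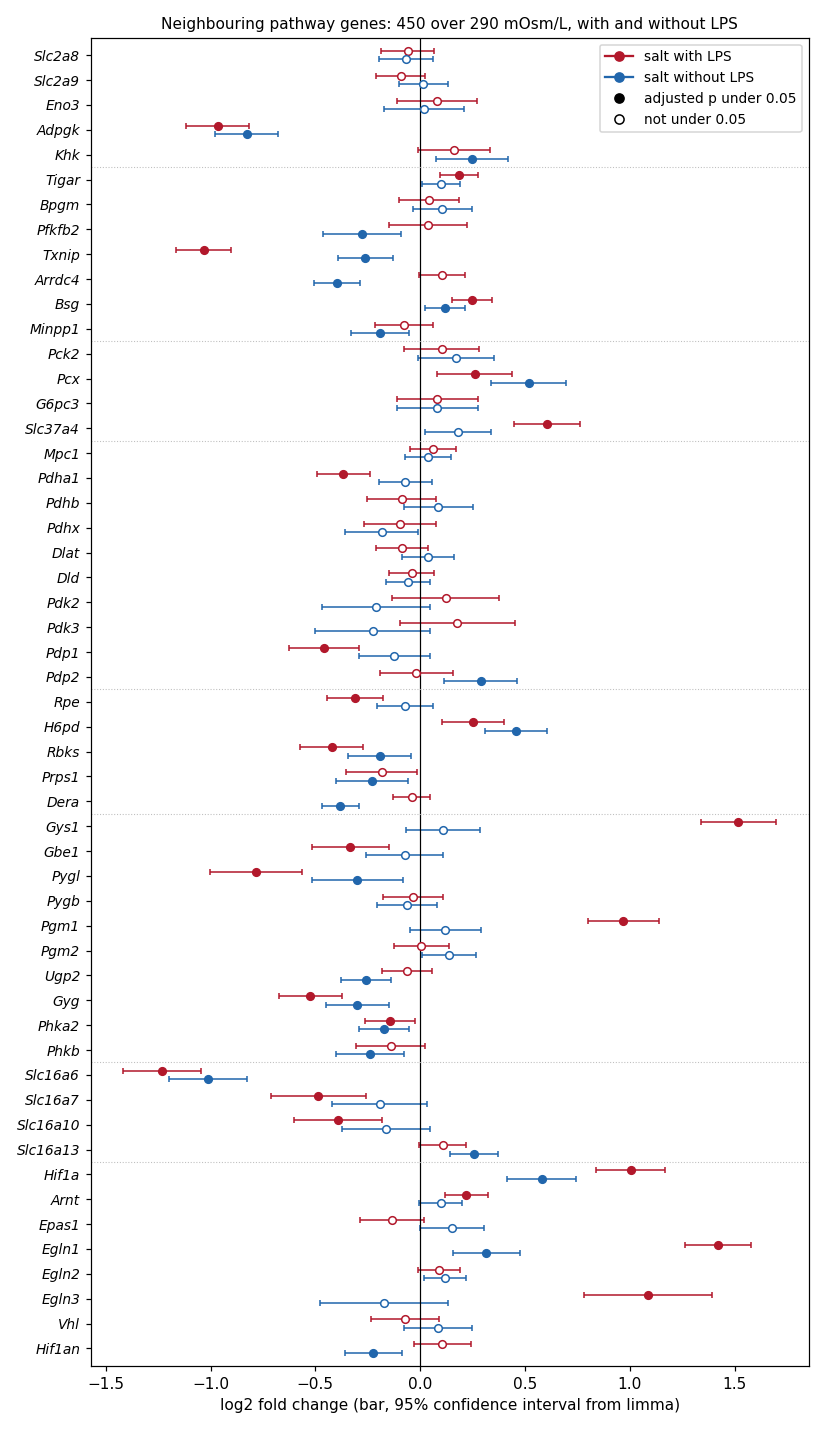
Log2 fold changes of 450 over 290 mOsm for the tested genes of the 8 neighbouring lists, with LPS (red, upper point of each gene) and without LPS (blue, lower point), with 95% confidence intervals from limma; filled points had an adjusted p under 0.05 and dotted lines separate the lists. Gys1, Egln1, Egln3, Hif1a and Pgm1 have the red points farthest right, at 1.52, 1.42, 1.09, 1.00 and 0.97, and Slc16a6 and Txnip those farthest left, at -1.23 and -1.03.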

How the data were processed

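Values were the deposited series table of 16 arrays, in which the authors give each probe set's expression on the log2 scale. Per the submitters' processing notes, the authors used RMA (background correction, quantile normalization, probe set summary) in the oligo package; their versions, the filters and the build were not given in the sources used here. This method removes most shifts shared by all transcripts and compresses dim and bright signals.

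Of 22549 probe sets, 20646 carry 1 gene symbol, 551 several and 1352 none; 20596 were found in RefSeq, which changed 0 symbols. Each gene was represented by its single-symbol probe set with the highest mean, and a gene was tested when that probe set exceeded the median of all values, 6.83, on at least 4 arrays, which left 10236 of 19272 genes. Pgk1, Pgam1 and Ldhb had several probe sets to choose from. Pgk1, Pgam1 and Ldha have close retrocopies that may share probes. Limma 3.58.1 in R 4.3.3 fitted 1 mean per group to all arrays (12 residual and 5.53 prior degrees of freedom) with contrasts for salt with and without LPS, LPS at 450 and 290 mOsm and for the interaction. P-values were two-sided and adjusted by Benjamini-Hochberg over all genes in each contrast, and 0.05 was the threshold. The number of arrays limits the precision.

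The labels give the same mouse to arrays of 1 replicate number, so the numbers pair the samples; deviations from group means correlated within a mouse with r from -0.15 to 0.43 (median 0.0953 over 24 pairs, 11 over 0.1), against a median of -0.0351 between mice. Alternatives were the mouse as a replicate block, other filters, probe set choices, scalings and variance models, and each mouse or array left out. The genes and lists were chosen with earlier results of these data known. All measured genes of the set are named, and from other lists at most the 3 called genes with the largest change in a comparison. On simulated arrays with 200 changed genes among 10236, a log2 change of 0.5 was recovered for 95.5% (salt with LPS), 94% (salt without LPS), 93% (LPS, 450 mOsm), 91% (LPS, 290 mOsm) and 79% (interaction) of them; false calls made up 3.7% to 7% of calls in the first 4 and 8.67% for the interaction, or 10% at a log2 change of 1. The simulation drew noise independently for each gene around 1 mean and changed only those 200 genes. In the data, 21.1% to 73.5% of genes were called in a comparison, so the simulated rates need not hold for them. Promoter windows were read with Python 3.11.15 and pandas 2.3.3, and figures drawn with matplotlib 3.10.9.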

Additional observations from a re-analysis of the deposited data

Results flagged for a closer look

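In 4 of the 108 sets of 4 arrays examined, 1 array stood apart from the other 3, where chance sets apart about 1 in 20 such sets. The rule sets the gap against the range of the 4 arrays, so a small gap is flagged where the other 3 agree closely. At 450 mOsm the replicate 4 array read 12.46 for Pgam1, against 12.31 to 12.33 on the other 3, and 12.50 for Pkm, against 12.30 to 12.32. The same array read 10.27 for Taldo1, against 10.30 on each of the other 3. At 450 mOsm with LPS the replicate 2 array read 7.62 for Rpia, against 7.37 to 7.39 on the others.

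The effect of salt differed between LPS-treated and resting cells, by the interaction test, for 14 of the 27 genes, 12 higher and 2 lower with LPS, where 10.7% of all genes were higher and 10.4% lower. It was higher with LPS for Slc2a1 (1.69 on the log2 scale), Pdk1 (1.19), Slc16a1 (1.17), Tpi1 (1.06), Hk2 (0.97), Pfkfb3 (0.85), Slc16a3 (0.74), Pfkl (0.50), Hk3 (0.48), Hk1 (0.36), Pgk1 (0.34) and Ldha (0.27). It was lower with LPS for Slc2a6 (-1.09) and Rpia (-0.27). Of the settings run for each, Rpia lost its call in 18 of 31, Hk1 in 7, Ldha in 2 and Pgk1 in 1.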

How the results depend on the processing

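Each of 135 results (27 genes in 5 comparisons) was recomputed under 32 settings, and 106 kept their side of the threshold in all of those run. Of the 4278 values, 81 lost a call, 49 gained 1 and 0 called values changed sign; 34 uncalled values, of 11 results, changed sign. Genes called lower with salt under LPS numbered 3 without the filter, under quantile normalization and under cyclic loess, against 5, because Hk3 and Taldo1 lost their calls, and 3 to 5 when a mouse or array was left out. Genes with an interaction below 0 numbered 1 without the filter and under median centring, against 2, because Rpia lost its call, and 1 to 3 when a mouse or array was left out. Without a mouse or array, rises with salt numbered 14 to 15 under LPS and 6 to 9 without it, and interactions above 0 numbered 9 to 13. With the mouse as a replicate block, the paired fit called 9 rises with salt without LPS (Pgam1 added), 9 with LPS at 290 mOsm (Slc16a3 added), and 14 interactions above and 3 below 0 (Pgam1, Pkm and Pfkp added), and it changed no other call. As a random term the mouse had a correlation of 0.0733. Over all genes, median centring gave 1343 higher and 3047 lower for salt without LPS, against 2104 and 2426, and cyclic loess gave 3728 higher and 3666 lower for LPS at 450 mOsm, against 2707 and 4641, and 3860 and 3737 at 290 mOsm, against 2702 and 4819. The cause of these changes was not tested. Pfkm and Eno2 lie near the filter level, where folds are compressed.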

Other observations

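At 450 mOsm with LPS, the replicate 3 array was lowest of the 4 for 13 of the 14 genes that rose with salt under LPS (median deviation from the group mean -0.18), and the replicate 1 array was highest for 10 of them (0.12). At 450 mOsm, the replicate 4 array was highest for 11 of the 14 (0.11). These ranks were counted for the 14 genes only, and whether the same arrays rank so over all genes was not tested.

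Pgk1, Pgam1 and Ldhb had further probe sets. The other probe set of Ldhb gave log2 changes of -0.32 for salt with LPS and -0.40 without, and -0.54 for LPS at 450 mOsm and -0.61 at 290 mOsm, against -0.12, -0.45, -0.47 and -0.81 from the set used above. The other 2 probe sets of Pgam1 gave the same group means as each other. With 1 of them the interaction was 0.33 (limma adjusted p = 0.0111), against 0.27 and 0.0818; this alternative was chosen after seeing the data.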
